A study of Mus musculus with 24 samples.

Results

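Regeneration-associated transcription factors are nuclear regulators that sensory neurons are known to switch on after their axon is cut. The 10 factors described here are Atf3, Jun, Sox11, Klf4, Klf6, Klf7, Smad1, Myc, Cebpd and Creb3. They were taken by gene symbol from the 47643 gene identifiers counted in every library. No measured value served as a criterion, but the choice was made with earlier results of these data known. All 10 passed the filter on low counts that left 17178 genes for testing. The question was how far these factors differed when Tsc2, a brake on the mTORC1 growth pathway, was deleted from nociceptors.

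RNA was sequenced from green fluorescent L4 dorsal root ganglion (DRG) cells, sorted by flow cytometry from 8 mice that all carried Nav1.8-Cre and the Rosa26-ZsGreen reporter. The 4 control mice were Tsc2 flox/+ and the 4 Nav-Tsc2 mice were Tsc2 flox/null. Mice 1 and 2 were males in both groups, and mice 3 and 4 were females. All mice were 8 to 9 weeks old, of mixed C57BL/6 and AJ background, and all had received a sciatic nerve crush 3 days earlier; the ganglia used were those on the side opposite to the crush. From each mouse 3 libraries (A, B and C) of 100 cells each were made. Both genotypes therefore had an injury on the other side, and the control cells had themselves lost 1 copy of Tsc2 wherever Cre had acted. Nav1.8-Cre acts from development onward in nociceptors and in some other sensory neurons, so the deletion was neither acute nor restricted to a single neuron type.

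The 24 libraries held 8339220 to 34228180 counts on genes, and the sums for a mouse were 47959617 to 61290435. Levels below are in CPM, the counts of a gene per 1000000 counts of the mouse, after trimmed-mean normalization of the mouse sums. Tsc2 itself fell from 20.9 ± 5.18 CPM (SD, n = 4 mice) to 8.87 ± 1.52 CPM, a log2 fold change of -1.24 (adjusted p = 0.004). Control libraries resembled each other less than Nav-Tsc2 libraries did: the median correlation of a library with the others of its genotype was 0.848 to 0.932 in control and 0.936 to 0.965 in Nav-Tsc2, and 15925 to 18544 genes against 17891 to 20466 had a count. Libraries 2A, 3A and 4A of the control mice had the lowest of these correlations; without them, the same 5 factors passed the test in the same directions. Fewer cells of a type and less RNA per cell cannot be told apart in such sorted pools.

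As background, axon injury activates kinases such as DLK and JNK in sensory neurons, and these switch on Jun and Atf3, partners in the AP-1 and ATF family of leucine zipper proteins. Sox11, a member of the SoxC group, and Smad1, which carries bone morphogenetic protein (BMP) signals to the nucleus, belong to the same injury programme. Krüppel-like factors (KLFs) divide into promoters of axon growth, Klf6 and Klf7, and a repressor of it, Klf4. Myc drives growth and metabolism, Cebpd acts in acute-phase transcription, and Creb3 is held in the endoplasmic reticulum membrane until it is cut free.

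A factor was called when the adjusted p was below 0.05 and the log2 fold change beyond 0.5 in either direction. Of the 10 factors, 4 were called higher in Nav-Tsc2 neurons (Atf3, Sox11, Smad1 and Cebpd), 1 was called lower (Myc), and 5 were not called (Jun, Klf4, Klf6, Klf7 and Creb3). Over all genes tested, 9.12% were called higher and 8.00% lower. The 4 Nav-Tsc2 mice all lay above the 4 control mice for 4 of the factors, against 14.6% of all genes, and all below for 1, against 12.3% of all genes. The median log2 fold change was 0.37 over the 10 factors and 0.01 over all genes tested.

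**Figure D1:**
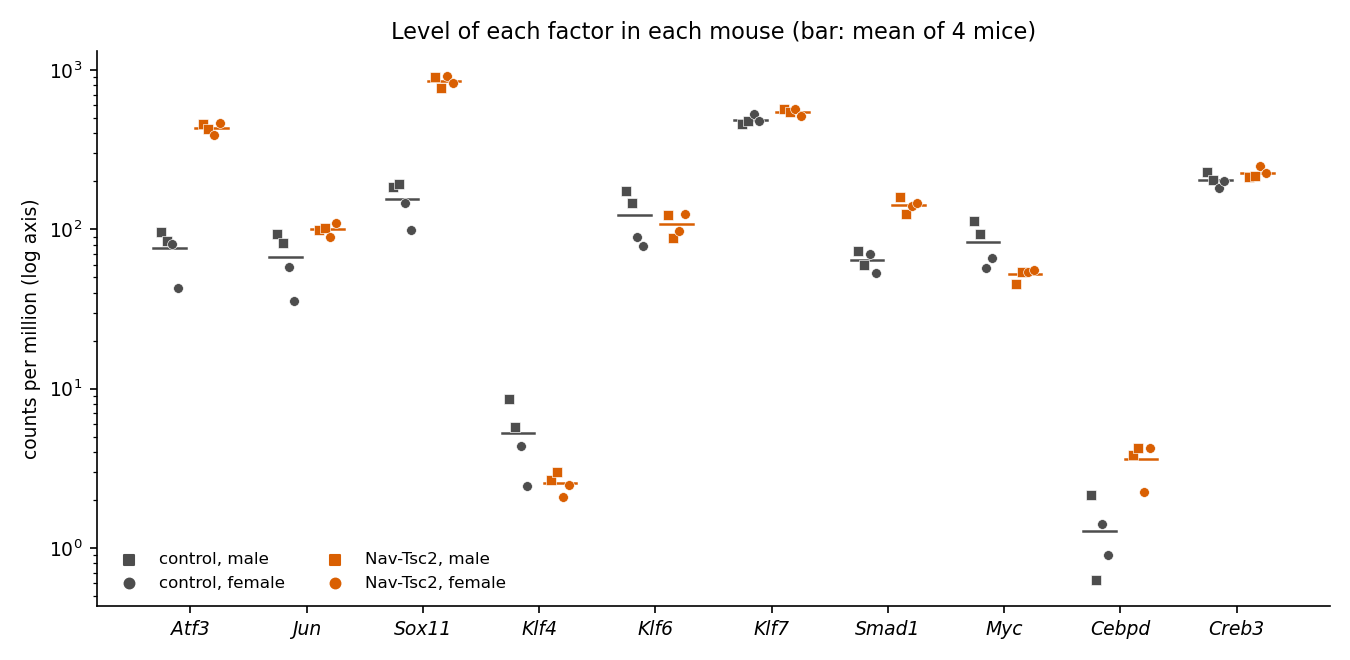
Level of each factor in each mouse, in CPM on a log axis; squares are males, circles females, and the bar is the mean of 4 mice. The groups stand clear of each other for Atf3, Sox11 and Smad1, are separated only narrowly for Cebpd and Myc, and overlap for Jun, Klf4, Klf6, Klf7 and Creb3.

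Atf3, the injury-induced leucine zipper factor widely used to mark axotomised neurons, lies at chr1:191170296-191218039 (GRCm38, minus strand). Its level was 96.1, 84.2, 81.1 and 42.7 CPM in control mice 1 to 4, and 455, 428, 390 and 463 CPM in Nav-Tsc2 mice 1 to 4. The lowest Nav-Tsc2 mouse was well above the highest control mouse, and the Nav-Tsc2 mice lay closer together than the controls did in relative terms. The means were 76.0 ± 23.2 and 434 ± 32.6 CPM (SD, n = 4), a log2 fold change of 2.51 (SE 0.22, 95% confidence interval 2.02 to 3.01, adjusted p = 0.000114). Atf3 was thus 5.71-fold higher in Nav-Tsc2 neurons and ranked 100 by p among the 17178 genes.

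Jun, the AP-1 partner of Atf3, is a gene with 1 exon at chr4:95049034-95052222 (minus strand). Its level was 93.3, 81.6, 57.9 and 35.6 CPM in the control mice, and 99.6, 102, 89.0 and 109 CPM in the Nav-Tsc2 mice. The mice of both genotypes overlapped, since the highest control mouse exceeded the lowest Nav-Tsc2 mouse, and the low control values came from the females. The means were 67.1 ± 25.7 and 99.8 ± 8.15 CPM, and the log2 fold change of 0.57 (SE 0.25, 95% confidence interval 0.01 to 1.13) was not called (adjusted p = 0.14). A limma fit of the 24 single libraries, in which mouse entered as a random effect, called it (0.75, adjusted p = 0.019), and no other alternative did.

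Sox11, the SoxC factor, is a gene with 1 exon at chr12:27334264-27342574 (minus strand). Its level was 183, 191, 147 and 99.1 CPM in the control mice, and 902, 774, 916 and 830 CPM in the Nav-Tsc2 mice. Every Nav-Tsc2 mouse was far above every control mouse. The means were 155 ± 42.1 and 855 ± 66.1 CPM, a 5.51-fold increase (log2 fold change 2.46, SE 0.19, 95% confidence interval 2.03 to 2.89, adjusted p = 5.93e-05). Of the 10 factors it had the smallest p.

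Smad1, the BMP-activated signal transducer, lies at chr8:79338395-79399518 (minus strand). Its level was 73.0, 59.4, 69.8 and 53.4 CPM in the control mice, and 159, 124, 140 and 147 CPM in the Nav-Tsc2 mice. The genotypes did not overlap, and the increase was smaller than those of Atf3 and Sox11. The means were 63.9 ± 9.1 and 143 ± 14.3 CPM, a 2.23-fold increase (log2 fold change 1.16, SE 0.12, 95% confidence interval 0.89 to 1.43, adjusted p = 0.000278).

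Cebpd, a CCAAT/enhancer-binding protein of the acute-phase response, is a gene with 1 exon at chr16:15887286-15891031 (plus strand). It was the least abundant of the factors in control mice, at 2.15, 0.625, 1.41 and 0.904 CPM, against 3.83, 4.21, 2.24 and 4.23 CPM in the Nav-Tsc2 mice. All Nav-Tsc2 mice were above all control mice, but Nav-Tsc2 mouse 3 was close to control mouse 1. The means were 1.27 ± 0.67 and 3.63 ± 0.945 CPM (log2 fold change 1.51, SE 0.45, 95% confidence interval 0.51 to 2.51, adjusted p = 0.0395). The call rested on few reads, 1 to 113 counts per library, and with the replicate number as a block it was lost (1.60, adjusted p = 0.0831). It was also lost without control mouse 2 (1.28, adjusted p = 0.0685), control mouse 3 (1.55, adjusted p = 0.0581) or control mouse 4 (1.37, adjusted p = 0.0832), and without Nav-Tsc2 mouse 1 (1.48, adjusted p = 0.0934), mouse 2 (1.42, adjusted p = 0.103) or mouse 4 (1.42, adjusted p = 0.0969).

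Creb3, the membrane-bound leucine zipper factor, lies at chr4:43562332-43567060 (plus strand). Its level was 228, 204, 182 and 201 CPM in the control mice, and 213, 216, 250 and 224 CPM in the Nav-Tsc2 mice. The mice overlapped, and the difference (log2 fold change 0.15, SE 0.09, 95% confidence interval -0.06 to 0.36) was not called (adjusted p = 0.29). The exons of Creb3 share 20.8% of their length with genes on the other strand, Tln1 and Gba2, those of Cebpd share 15.0% with Spidr, those of Klf7 share 39.4% with Gm26649 and Gm13748, and those of Jun share 7.3% with Junos. The kit does not mark strand, so reads in the shared stretches cannot be assigned to either gene with certainty.

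Among the Krüppel-like factors, none of the 3 was called. Of the 3, 1 had an unadjusted p below 0.05, and DESeq2 called 1; in both cases it was Klf4. Klf7, the growth-promoting factor of highest level here (chr1:64029447-64122282, minus strand), was at 460, 479, 532 and 478 CPM in the control mice and at 570, 542, 565 and 511 CPM in the Nav-Tsc2 mice. Only Nav-Tsc2 mouse 4 lay below the highest control mouse. The log2 fold change was 0.17 (SE 0.08, 95% confidence interval -0.002 to 0.34, adjusted p = 0.152), so a change of the size seen for Smad1 lay outside the interval.

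Klf6, its close relative (chr13:5861482-5870394, plus strand), was at 174, 147, 89.8 and 78.9 CPM in the control mice and at 122, 88.3, 98.1 and 125 CPM in the Nav-Tsc2 mice. The Nav-Tsc2 mice fell between the male and the female control mice, apart from mouse 2, which lay between the females. The log2 fold change over all mice was -0.18 (SE 0.24, adjusted p = 0.671), and it was 0.04 without control mouse 1 (adjusted p = 0.932).

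Klf4, the growth-repressing member (chr4:55527143-55532466, minus strand), was at 8.57, 5.7, 4.38 and 2.45 CPM in the control mice and at 2.65, 2.99, 2.09 and 2.47 CPM in the Nav-Tsc2 mice. Control mouse 4 lay among the Nav-Tsc2 mice, and the other control mice above them. The log2 fold change was -1.05 (SE 0.38, 95% confidence interval -1.9 to -0.2) with an adjusted p of 0.0807. DESeq2 called it (-1.07, adjusted p = 0.0252), as did the fit without control mouse 4 (-1.29, adjusted p = 0.0234), and 15 of 17 alternatives did not. The value was -0.57 (adjusted p = 0.468) in the limma fit of the 24 libraries and -0.71 (adjusted p = 0.217) without control mouse 1. Its value was uneven within control mice, in which 1 of the 3 libraries held 51.2% to 83.0% of the mouse's summed level.

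Myc, the growth regulator (chr15:61985391-61990374, plus strand), went the other way from Atf3, Sox11 and Smad1. Its level was 113, 93.9, 57.5 and 66.2 CPM in the control mice, and 45.0, 53.6, 54.1 and 55.3 CPM in the Nav-Tsc2 mice. All Nav-Tsc2 mice lay below all control mice, by a wide margin for the males and narrowly for the females. The means were 82.5 ± 25.4 and 52.0 ± 4.71 CPM (log2 fold change -0.67, SE 0.20, 95% confidence interval -1.11 to -0.22, adjusted p = 0.0404). With the replicate number as a block the call was lost (-0.62, adjusted p = 0.10). It was also lost without control mouse 1 (-0.48, adjusted p = 0.0866) or control mouse 2 (-0.60, adjusted p = 0.0941), and without Nav-Tsc2 mouse 1 (-0.60, adjusted p = 0.114), mouse 2 (-0.69, adjusted p = 0.0882), mouse 3 (-0.68, adjusted p = 0.0797) or mouse 4 (-0.70, adjusted p = 0.0799).

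**Figure D2:**
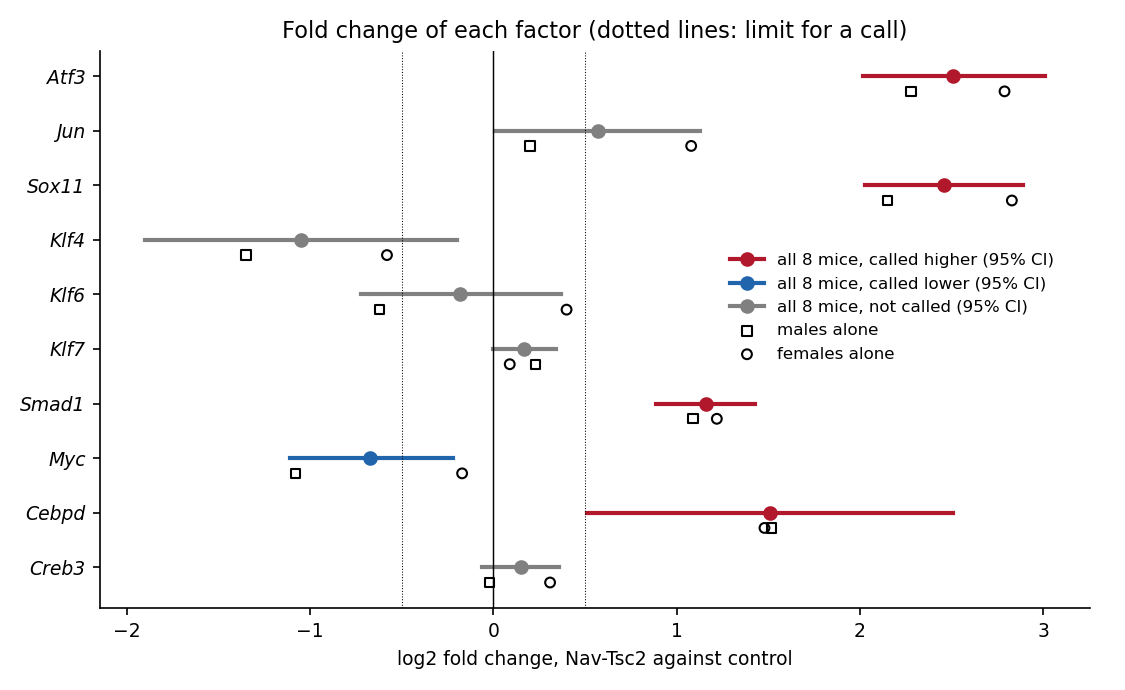
Log2 fold change of each factor, Nav-Tsc2 against control, with its 95% confidence interval (filled points, all 8 mice) and the values in males alone and females alone (open symbols); dotted lines mark 0.5 in either direction. Atf3 (2.51), Sox11 (2.46) and Smad1 (1.16) were on the same side in both sexes, and Klf6 was at -0.62 in males and 0.40 in females.

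Several of the factors had higher levels in control males than in control females, and levels near each other in the Nav-Tsc2 males and females. Mean levels in control males and females were 160 and 84.3 CPM for Klf6, 103 and 61.8 CPM for Myc, and 87.5 and 46.7 CPM for Jun. In Nav-Tsc2 mice the same means were 105 and 111 CPM for Klf6, 49.3 and 54.7 CPM for Myc, and 101 and 98.8 CPM for Jun. The log2 fold change of Myc was accordingly -1.08 in males and -0.17 in females, that of Jun 0.20 and 1.08, and that of Klf6 -0.62 and 0.40. Some nociceptor markers also differed between control males and females. Calca was at 13465 and 14634 CPM in control males and at 6039 and 6511 CPM in control females. Mrgprd was at 56.0 and 21.9 CPM in control males and at 325 and 233 CPM in control females. In Nav-Tsc2 mice 1 to 4 it was at 546, 486, 598 and 518 CPM. Scn9a and Prph overlapped between control males and females. The part of the markers in these patterns was not tested.

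The difference between the sexes was tested as an interaction of genotype and sex, with 2 mice of each sex per genotype. No factor passed after adjustment (0 of 10), and 1 gene did over all those tested, 0.00582%. At an unadjusted p below 0.05, 4 of the 10 factors passed (Jun, Sox11, Klf6 and Myc), against 9.22% of all genes. The smallest of these was for Myc, a difference of 0.89 on the log2 scale (SE 0.21, p = 0.00327, adjusted p = 0.29), followed by Klf6 (1.01, SE 0.27, p = 0.00603, adjusted p = 0.311), Jun (0.87, SE 0.31, p = 0.0244, adjusted p = 0.457) and Sox11 (0.66, SE 0.25, p = 0.0324, adjusted p = 0.483). All 4 differences were in the direction of a higher fold change in females. For Atf3, the fold changes were 2.28 in males and 2.79 in females, and for Smad1 1.09 and 1.22.

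The single libraries showed the same separation for the 3 leading factors. For Atf3 the 12 control libraries ranged from 16.1 to 113 CPM (median 65.4) and the 12 Nav-Tsc2 libraries from 314 to 597 CPM (median 415). For Sox11 the ranges were 92.7 to 279 CPM (median 149) and 588 to 1559 CPM (median 851). For Smad1 they were 24.3 to 100 CPM (median 66.1) and 110 to 192 CPM (median 142). In all 3 cases 12 of 12 Nav-Tsc2 libraries were above the highest control library.

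The other factors were less clear at this level. For Cebpd, 8 of 12 Nav-Tsc2 libraries were above the highest control library, and for Jun 4 of 12, although 12 of 12 exceeded the control median for both. For Myc, 1 of 12 was below the lowest control library and 0 of 12 above the control median. Library A of control mouse 4 gave the lowest control value for Atf3 (16.1 CPM), Jun (11.1 CPM), Smad1 (24.3 CPM) and Myc (35.2 CPM).

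**Figure D3:**
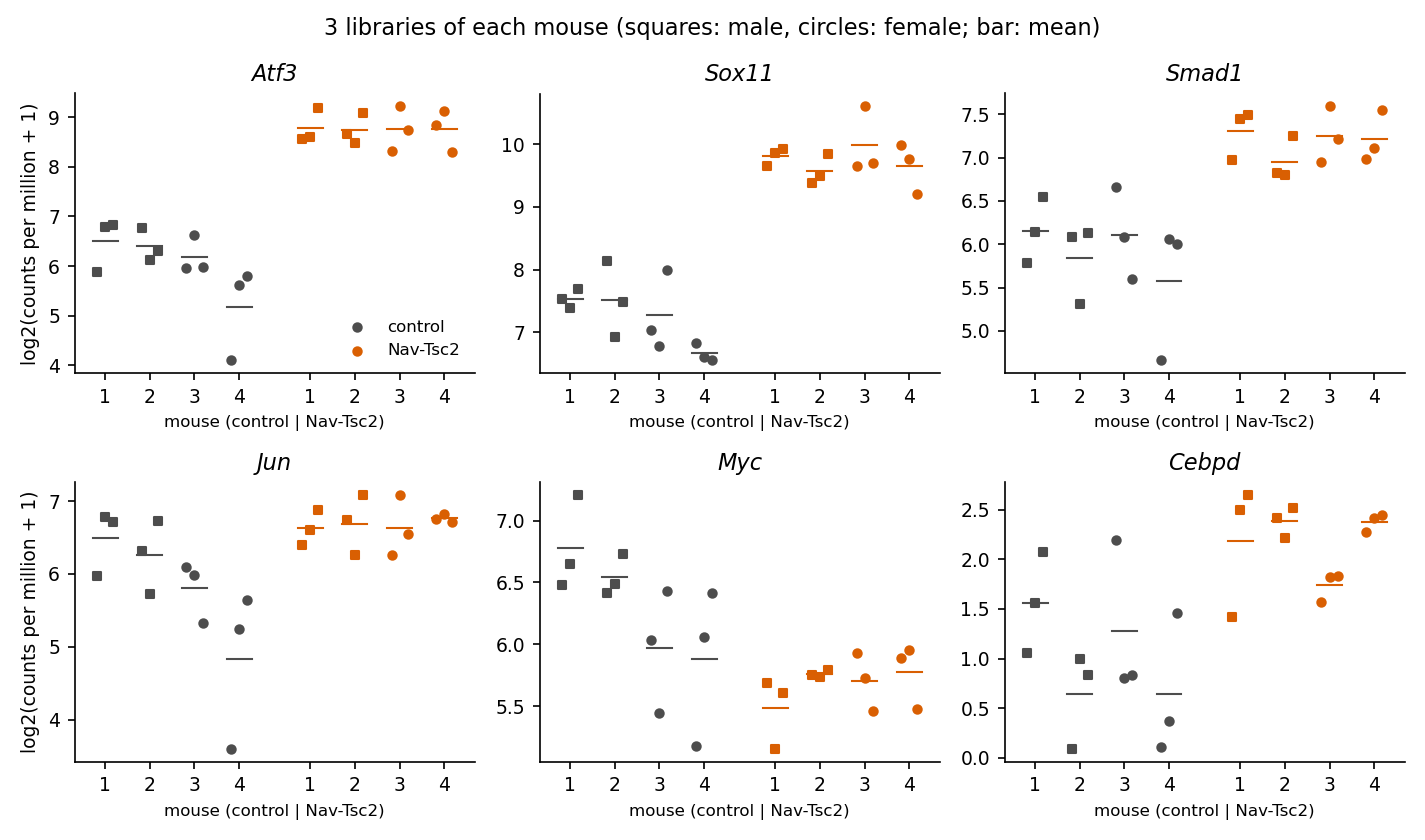
Level in each of the 3 libraries of each mouse for 6 factors, as log2(CPM + 1); squares are males, circles females, and bars are the mean of a mouse's libraries. For Atf3, Sox11 and Smad1 the 12 Nav-Tsc2 libraries all lie above the 12 control libraries, and for Jun, Myc and Cebpd the libraries overlap.

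Mice of the Nav-Tsc2 genotype were close to each other. The SD of the mouse means on the log2(CPM + 1) scale was 0.02 in Nav-Tsc2 and 0.61 in control for Atf3, 0.06 and 0.73 for Jun, 0.12 and 0.75 for Klf4, and 0.14 and 0.44 for Myc. For Creb3 it was 0.14 in both genotypes. These means average the log levels of a mouse's libraries. In the mouse sums, Atf3 ranged from 390 to 463 CPM in Nav-Tsc2 mice. Among the libraries of a mouse, the SD for Atf3 was 0.39 in Nav-Tsc2, well above the 0.02 among mouse means, and 0.60 in control. Libraries of a mouse are repeat pools of its cells and not further mice, and the lower agreement and lower gene number of the control libraries given above went in the same direction; their part in this spread was not tested.

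To compare the factors with each other, levels were divided by the length of the merged exons. In control neurons the order was Creb3 (85.8 ± 7.89 CPM per kilobase), Klf7 (59.9 ± 3.81), Atf3 (35.3 ± 10.7), Myc (30.4 ± 9.33), Klf6 (27.9 ± 10.3), Jun (21.0 ± 8.05), Sox11 (18.7 ± 5.06), Smad1 (10.2 ± 1.45), Klf4 (1.73 ± 0.844) and Cebpd (0.34 ± 0.179). The neighbours from Atf3 down to Sox11 overlapped each other, and the other neighbours did not. Even in control mice, Atf3 was above 91.5% of the genes tested in level per kilobase.

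In Nav-Tsc2 neurons Atf3 came first (201 ± 15.1 CPM per kilobase), followed by Sox11 (103 ± 7.95), Creb3 (95.2 ± 7.18), Klf7 (67.3 ± 3.33), Jun (31.3 ± 2.56), Klf6 (24.7 ± 4.08), Smad1 (22.8 ± 2.29), Myc (19.1 ± 1.73), Cebpd (0.968 ± 0.252) and Klf4 (0.837 ± 0.123). Sox11 and Creb3 overlapped, as did the neighbours from Jun down to Myc, and Cebpd and Klf4. Atf3 was then above 98.5% of the genes tested, and Sox11, at 86.1% in control mice, above 97.1%. Klf4 and Cebpd stayed at the low end in both genotypes, with Klf4 above 46.3% of genes in control and 33.3% in Nav-Tsc2, and Cebpd above 19.4% and 35.8%.

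**Figure D4:**
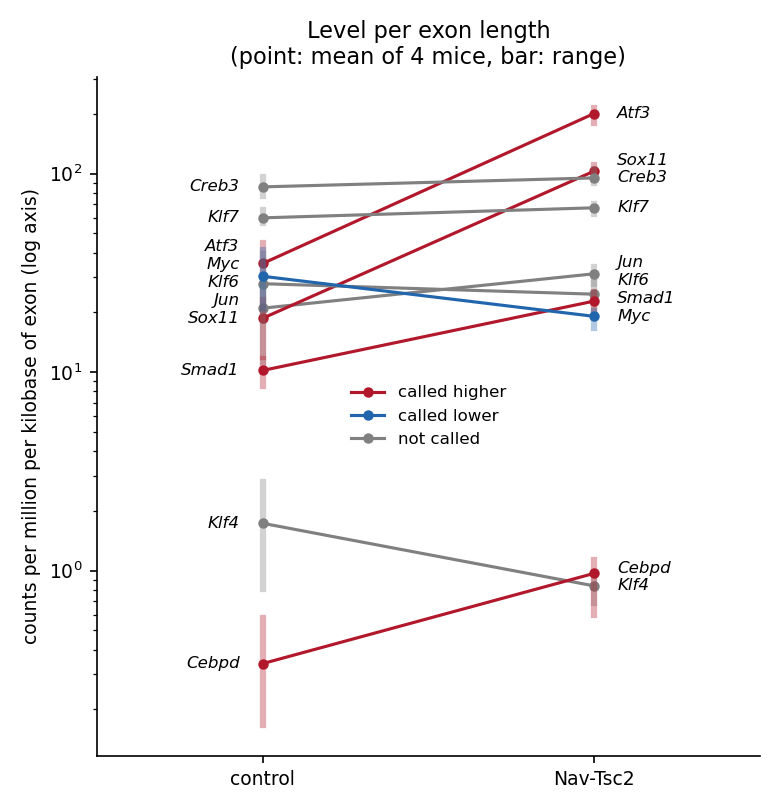
Level of each factor in CPM per kilobase of merged exon, on a log axis, in control and Nav-Tsc2 neurons; points are means of 4 mice and bars the range over mice. Atf3 moved from 35.3 to 201 and Sox11 from 18.7 to 103, while Creb3 was at 85.8 and 95.2.

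The factors were then compared over the 24 libraries after the mean of each genotype was removed from log2(CPM + 1), so that the genotype difference itself did not enter. Atf3 and Jun varied together most closely (Pearson r = 0.91), followed by Atf3 and Klf6 (0.86) and Jun and Klf6 (0.81). Sox11 varied less with them (0.51 with Atf3, 0.43 with Jun and 0.56 with Klf6), and Creb3 did not follow them (-0.16 with Atf3 and -0.15 with Jun). The lowest value was that of Klf7 and Creb3 (-0.51). These correlations describe 24 libraries that share mice, depth and normalization.

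**Figure D5:**
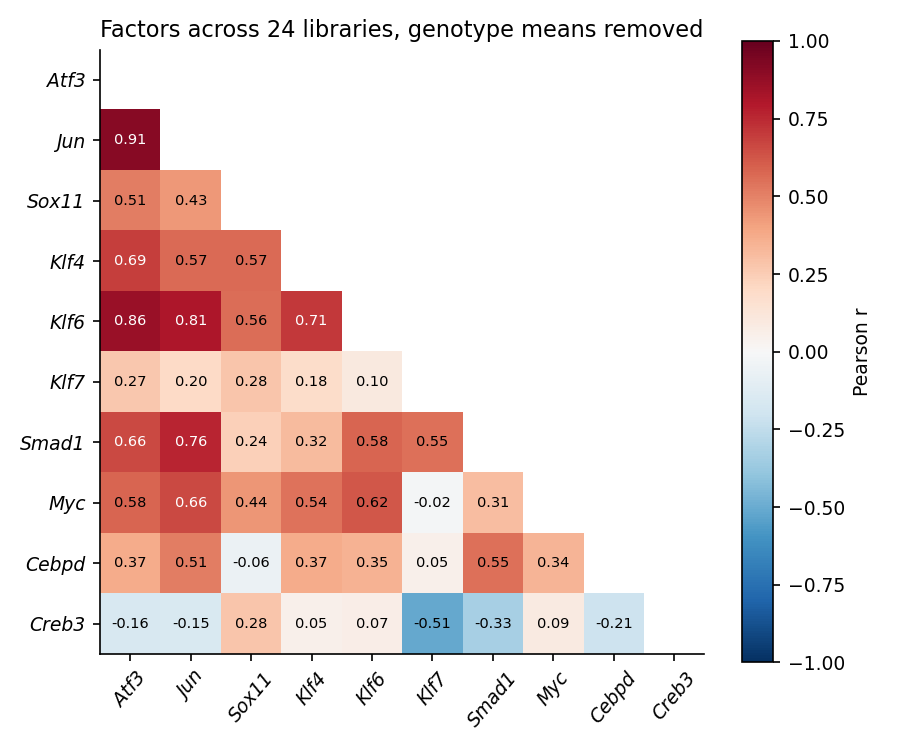
Pearson correlation of each pair of factors over 24 libraries, from log2(CPM + 1) with the mean of each genotype removed; red is positive and blue negative. Atf3, Jun and Klf6 form the block of highest values (0.81 to 0.91).

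Among the 10175 genes with a mean of at least 5 CPM, those most like Atf3 in this comparison were Jun (0.91), the phosphatase gene Dusp1 (0.88) and Klf6 (0.86). Those most like Sox11 were the protease gene Adam10 (0.81), Plekho2 (0.79) and Gm29666 (0.75). Those most like Smad1 were Tceal8 (0.82), the fatty acid desaturase gene Fads1 (0.82) and the calcium channel gene Itpr1 (0.80). For Myc they were Slc25a42 (0.84), Mapk7 (0.80) and Zkscan6 (0.79), and for Cebpd, with its few counts, Mtpn (0.79), Timm50 (0.73) and Ptpn23 (0.72).

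Tissue dissociation is known to induce immediate early genes, so a list of 22 such genes was summed in each mouse. The sum was 962, 873, 837 and 490 CPM in the control mice and 764, 716, 712 and 743 CPM in the Nav-Tsc2 mice. Control mouse 4 was low and the other control mice were above all Nav-Tsc2 mice. Over the 24 libraries the sum varied most closely with Jun (0.87) and Atf3 (0.81). It also varied with Klf6 (0.65), Smad1 (0.64), Myc (0.62), Klf4 (0.58) and Cebpd (0.49). The values were lower for Sox11 (0.40) and Klf7 (0.35), and Creb3 did not follow the sum (-0.19). Its part in the levels of the factors was not tested.

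Of the 20 genes of that list that were tested, 5 were called higher, 3 lower and 12 not, with a median log2 fold change of -0.12. The highest-ranked among the higher ones were Dusp1 (1.39, adjusted p = 0.00311) and the AP-1 gene Jund (0.90, adjusted p = 0.00452). Among the lower ones they were Dnajb1 (-0.79, adjusted p = 0.00172) and Btg2 (-1.07, adjusted p = 0.0216). Ier5, also called higher, would not have passed the filter from the control mice alone.

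Promoter windows of 250 bases before the RefSeq start (GRCm38.p6) were present for 8 of the 10 factors; Myc and Cebpd had no entry. They were searched on both strands for the AP-1 site TGACTCA, the cyclic AMP response element TGACGTCA, its variant TGACATCA, the E-box CACGTG, TTCNNNGAA, TTGCNNAA, GGGTGTGG and the inverted CCAAT box GATTGG. The windows of Jun, Sox11 and Klf6 held TGACATCA, which is in 2.93% of the 32851 windows of all genes. They are shown 5′ to 3′ as read along each gene, with every searched motif in capitals, and lie at chr4:95052223-95052472 (Jun, minus strand), chr12:27342719-27342968 (Sox11, minus strand) and chr13:5861239-5861481 (Klf6, plus strand, without the 7 bases before the RefSeq start that GENCODE places in an exon).
Jun: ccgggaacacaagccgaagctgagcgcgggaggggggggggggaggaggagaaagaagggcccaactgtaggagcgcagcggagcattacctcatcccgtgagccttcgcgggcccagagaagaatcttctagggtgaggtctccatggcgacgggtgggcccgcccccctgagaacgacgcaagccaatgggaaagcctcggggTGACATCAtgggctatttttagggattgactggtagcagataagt
Sox11: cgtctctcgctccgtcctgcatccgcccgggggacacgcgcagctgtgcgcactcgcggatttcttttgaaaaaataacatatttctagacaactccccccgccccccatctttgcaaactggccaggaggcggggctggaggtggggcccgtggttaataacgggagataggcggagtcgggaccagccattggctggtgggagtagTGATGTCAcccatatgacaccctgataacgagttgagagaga
Klf6: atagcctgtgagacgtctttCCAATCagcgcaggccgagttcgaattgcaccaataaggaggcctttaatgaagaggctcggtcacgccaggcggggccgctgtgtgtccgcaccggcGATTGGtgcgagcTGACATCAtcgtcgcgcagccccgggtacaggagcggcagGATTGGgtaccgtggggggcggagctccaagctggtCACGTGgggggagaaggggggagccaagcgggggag

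TGACATCA starts 45 bases before the start in Jun, 42 in Sox11, where it reads TGATGTCA on the gene's own strand, and 119 in Klf6. Klf6 also holds CACGTG 43 bases before its start and GATTGG at 3 places (230, 132 and 79 bases before the start, the first of them on the other strand). The E-box, found in 6.02% of all windows, is in the window of Klf4 too, 182 bases before the start, and the inverted CCAAT box is in 14.56% of all windows. The windows of Atf3, Klf7, Smad1 and Creb3 held none of the 8 motifs. All 250 bases of the Creb3 window lie in an annotated exon, as do 102 bases of Klf7, 90 of Smad1 and 7 of Atf3. The Atf3 window (chr1:191183334-191183583) lies inside the annotated gene, so bases before its outermost start were not searched. The shares of all windows were 4.46% for TGACTCA, 1.55% for TGACGTCA, 7.02% for TTCNNNGAA, 9.56% for TTGCNNAA and 3.20% for GGGTGTGG, and none of these was in any of the 8 windows.

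Relatives and partners of the factors were counted in lists by family and pathway. These lists were chosen with earlier results of these data known, so their counts are descriptions only. Over all genes tested, 9.12% were called higher and 8.00% lower. Of 16 tested AP-1 and ATF relatives, 4 were called higher and 1 lower (median log2 fold change 0.52). Atf4, the translation-controlled stress factor, rose from 87.3 ± 11.3 to 199 ± 6.87 CPM (1.19, adjusted p = 9.36e-05), and Atf5 from 9.34 ± 3.22 to 28.4 ± 1.49 CPM (1.61, adjusted p = 0.0019). Fos, the other classic AP-1 subunit, fell from 204 ± 57.2 to 118 ± 11.5 CPM (-0.78, adjusted p = 0.022).

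Of 17 tested CEBP and CREB relatives, 2 were called higher and 1 lower (median 0.11). Ddit3, the stress-induced CEBP factor also called CHOP, rose from 69.8 ± 11.4 to 178 ± 12.7 CPM (1.35, adjusted p = 0.000132), and Creb3l2, a relative of Creb3, from 7.81 ± 3.3 to 14.5 ± 1.42 CPM (0.89, adjusted p = 0.0457). The coactivator gene Crebbp fell (-0.51, adjusted p = 0.00979).

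Of 18 tested BMP and Smad pathway genes, 2 were called higher and 2 lower (median 0.25). The ligand gene Bmp7 was at 0.25 ± 0.449 CPM in control and 6.8 ± 4.36 CPM in Nav-Tsc2 (4.75, adjusted p = 0.0228), with few counts in control. The control mice alone would not have brought Bmp7 through the filter, so a call of lower was hardly possible for it. The receptor gene Acvr1 rose (1.13, adjusted p = 0.00637), the receptor gene Bmpr2 fell (-0.53, adjusted p = 0.00322), and Id2, a known target of Smad signalling, fell from 232 ± 56.0 to 125 ± 19.0 CPM (-0.90, adjusted p = 0.00755).

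No gene was called among 7 Sox relatives (median 0.23), 14 KLF and Sp relatives (median -0.07) or 10 genes of the Myc and Max network (median 0.03). At an unadjusted p below 0.05 there were 1 higher and 0 lower among the Sox relatives, 1 higher and 2 lower among the KLF and Sp relatives, and 2 higher and 1 lower in the Myc network; DESeq2 called 0, 1 (lower) and 1 (higher). Among 18 other injury-linked regulators, 4 were called higher and 1 lower (median 0.29). Stat3, which carries cytokine signals, rose from 309 ± 28.6 to 472 ± 42.9 CPM (0.61, adjusted p = 0.00225), Hif1a, the hypoxia factor, from 75.1 ± 8.54 to 129 ± 15.9 CPM (0.78, adjusted p = 0.00187), and Tead1 fell (-0.76, adjusted p = 0.0449).

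The upstream DLK and JNK signalling genes showed 1 call in each direction among 19 tested (median -0.05). Mapk10, which encodes the neuronal kinase JNK3, fell from 331 ± 27.2 to 160 ± 13.5 CPM (-1.05, adjusted p = 0.000114), and Dusp1, a phosphatase that switches off such kinases, rose from 78.4 ± 29.0 to 205 ± 15.9 CPM. Of 30 tested genes known to be induced with these factors after axotomy, 22 were called higher and 1 lower, with a median log2 fold change of 1.87. The shares over all genes were 9.12% and 8.00%. Earlier results of these data were known when this list was chosen, so its count is not independent of them. Npy and Arg1, at 0.31 and 0.241 CPM in control, were among the genes called higher. The control mice alone would not have brought either gene through the filter, so a call of lower was hardly possible for them. Sprr1a, a small proline-rich protein of regrowing axons, was at 4.29 ± 0.776 CPM in control and 223 ± 31.1 CPM in Nav-Tsc2 (5.70, adjusted p = 4.1e-07). The cholecystokinin receptor gene Cckbr was at 0.393 ± 0.062 and 89.8 ± 8.67 CPM (7.83, adjusted p = 1.47e-08), and the neurotrophin gene Bdnf fell from 147 ± 89.2 to 59.0 ± 12.1 CPM (-1.32, adjusted p = 0.0332).

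Markers of the sorted cells and of other cells in the ganglion were counted in the same way. Of 19 sensory neuron markers, 5 were called lower, 1 higher and 13 not. Their summed level was 24209 to 36112 CPM in control mice and 21098 to 25660 CPM in Nav-Tsc2 mice. Calca, called lower, entered this sum with means of 10162 CPM in control and 2557 CPM in Nav-Tsc2. Prph, the marker called higher, was at 902 and 1481 CPM. Tubb3 (5908 and 7774 CPM) and Scn10a (670 and 608 CPM) were not called. Of 13 tested glial markers 1 was lower (sums of 2896 to 3048 and 1915 to 2480 CPM), and of 7 tested markers of other sensory neuron types 1 was lower and 1 higher. Of 4 tested endothelial markers 3 were higher (Flt1, Kdr and Ly6c1), with sums of 0.508 to 2.13 and 7.81 to 20.6 CPM. Pecam1 (0.422 CPM in control and 0.315 CPM in Nav-Tsc2), Cdh5 and Cldn5 did not pass the filter. Of 6 tested macrophage and immune markers 1 was higher (sums of 2.33 to 8.53 and 9.87 to 20.8 CPM), and of 8 fibroblast and mural markers 2 were (sums of 84.0 to 244 and 145 to 214 CPM). Control means were 0.0338 CPM for Flt1, 0.0182 for Ly6c1, 0.0328 for Cx3cr1 and 0.131 for Acta2. Their Nav-Tsc2 means were 8.56, 2.63, 5.71 and 7.25 CPM. The control mice alone would not have brought these genes or Kdr through the filter, so a call of lower was hardly possible for them. Their calls therefore do not measure how many such cells were sorted. Of 3 tested red blood cell markers none was called, 3 had an unadjusted p below 0.05 and DESeq2 called 3 lower; Hbb-bt was at 0 in every library. The part of these markers in the results was not tested.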

How the data were processed

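RNA from pools of 100 sorted cells was made into cDNA with the SMARTer Ultra Low kit, amplified and read as single 50-base reads. The authors aligned reads to mm10 with STAR and deposited raw HTSeq counts per gene for each of 24 libraries, whose versions are not given in the sources used here; between 47.6% and 55.9% of the HTSeq total per library fell in no gene and was left out of library sizes. A deposited table of the authors' own DESeq2 comparison, with normalized values, was not used. Symbols were matched to 47224 of 47643 identifiers, and coordinates and exon lengths came from GENCODE vM21 (GRCm38, the assembly of mm10). The 3 libraries of a mouse were summed; 0 library pairs were identical.

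Sums were fitted with edgeR 4.0.16 (R 4.3.3) by the quasi-likelihood F test after filterByExpr and TMM scaling, with Benjamini-Hochberg adjustment over 17178 genes; SE is the fold change over the square root of F. Alternatives were DESeq2 1.42.0, limma 3.58.1, other scaling, no filter, sex or replicate number as a term, equal library weights, each mouse or the 3 least similar control libraries left out, and each sex alone. Same-numbered mice had deviations from their genotype means correlated at 0.128 to 0.220 over 8445 genes with at least 10 CPM, so the numbers were taken to pair mice; same-sex pairs of unequal number reached 0.084 to 0.220. Mice were the replicates. Depth is given per library and mouse, and counts carry amplification noise that was not separated from biological spread. The 10 factors, the gene lists, marker lists and motifs were chosen with earlier results of these data known. Named genes were all 10 factors, Tsc2, per related list the 2 called genes of smallest adjusted p in each direction, and the 3 genes most like Atf3 and each called factor. Some cell type markers and list genes were also named, to show what made up a sum or a call, or what limits it.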

Additional observations from a re-analysis of the deposited data

Results flagged for a closer look

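Myc in Nav-Tsc2 mouse 1 was at 45.0 CPM, apart from the other Nav-Tsc2 mice at 53.6, 54.1 and 55.3 CPM by more than Dixon's criterion allows. In all, 20 groups of 4 mice were examined, and chance gives about 1 in 20. Without this mouse the log2 fold change of Myc was -0.60 (adjusted p = 0.114).

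Klf6 had fold changes of opposite sign in males and females. In males it was at 174 and 147 CPM in control and 122 and 88.3 CPM in Nav-Tsc2 mice (log2 fold change -0.62). In females it was at 89.8 and 78.9 CPM in control and 98.1 and 125 CPM in Nav-Tsc2 mice (0.40). The groups did not overlap within either sex, with 2 mice on each side. The interaction of genotype and sex was 1.01 on the log2 scale (SE 0.27), with an adjusted p of 0.311. Control males and females also differed in some nociceptor markers, given above.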

How the results depend on the processing

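Atf3, Sox11 and Smad1 were called higher in 17 of 17 alternative fits, with log2 fold changes of 2.32 to 2.65, 2.30 to 2.58 and 1.08 to 1.23. Cebpd was called in 9 of 17 (1.28 to 1.96), with the further loss of its call when no low-count filter was applied (adjusted p = 0.0579), and Myc in 10 of 17 (-0.82 to -0.48). Klf6, Klf7 and Creb3 were called in 0 of 17, Jun in 1 (0.36 to 0.77) and Klf4 in 2 (-1.29 to -0.57). The number of factors called lower, 1 as reported, was 2 with DESeq2, 0 with the replicate block, 0 in females alone and 0 to 2 when each mouse was left out in turn; the replicate block also lost the call of Cebpd and changed no other call among the factors. In females alone 186 genes were called lower and 308 higher, and in males alone, with as many mice in the fit, 1160 lower and 1424 higher. Klf6 was between -0.34 and 0.04 when each mouse was left out, with the reversal without control mouse 1, and reversed in females alone (0.40), and Creb3 reversed in males alone (-0.02). The cause of these changes was not tested. The order of levels per kilobase was the same with libraries weighted equally. Leaving out control libraries 2A, 3A and 4A was chosen after seeing the data and changed no call. Depth limits Cebpd and Klf4, which had as few as 1 count in a library.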
